A study of Danio rerio with 82 samples.

Results

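Stage IV and stage I zebrafish (Danio rerio) oocytes, the late and the early end of the oocyte growth series, were compared through the polyadenylated RNA of 1 library each. Of 28405 loci in the gene tables, 13345 had a mean of at least 1 FPKM over both libraries and form the comparison. FPKM counts fragments per kilobase of transcript and scales them to the library, and the authors gave each value a lower and an upper bound. Both groups came from adult females of the wild-type Tu strain, with no treatment or engineered allele. The ovaries were dissected and the oocytes were picked by morphology, after which as many follicle cells as possible were taken off. By the labels, stage I oocytes were in G1 phase and stage IV oocytes in metaphase I, which could not be checked with 1 library each; G1 does not match the prophase arrest of growing oocytes described next. The series holds 82 samples of chromatin and RNA from gametes and embryos, and the 4 oocyte RNA libraries of stages I to IV were used here, those of stages II and III only to show the values in between.

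A fish oocyte grows inside a follicle of somatic cells while its meiosis is held in prophase. During growth it fills with yolk and stores the RNA and protein from which the embryo will live until its own genome is switched on. At maturation transcription is low, meiosis resumes, the first spindle forms, and stored messages are held, translated or removed in turn.

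More than 4 in 10 of the measured genes were lower in the stage IV library, and about 1 in 5 were higher. A 2-fold rule was used, a difference of at least 1 in log2(FPKM + 1); on this scale the change of genes with low values is understated. By this rule 2730 loci were higher in stage IV (20.5% of the 13345) and 5910 were lower (44.3%), with 4705 in between (35.3%), so that 64.7% of all loci passed the rule. The deposited bounds of the libraries did not overlap for 2669 of the higher loci (20.0% of all) and 5728 of the lower loci (42.9%). A locus listed at 0 can have both bounds at 0, as SMIM4 below, so that its bounds lie apart more easily. At a 4-fold rule the counts were 956 (7.16%) and 3146 (23.6%). With 1 library a stage there was no replicate check, so "higher" and "lower" describe these libraries and no test or p-value is given. FPKM values are relative to the library total, and the number of reads behind them is unknown. The median difference over all 13345 loci was -0.69, with quartiles of -1.92 and 0.70. Scaling stage IV by the median ratio of loci above 1 FPKM in both libraries moved this median by 0.30, to -0.39. The counts of gene groups are therefore to be read against 20.5% higher, 44.3% lower and the median of -0.69. When all differences were centred on that median, 4272 loci were higher and 3991 lower, so that the higher loci made up 51.7% of those called against 31.6% as deposited.

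**Figure D1:**
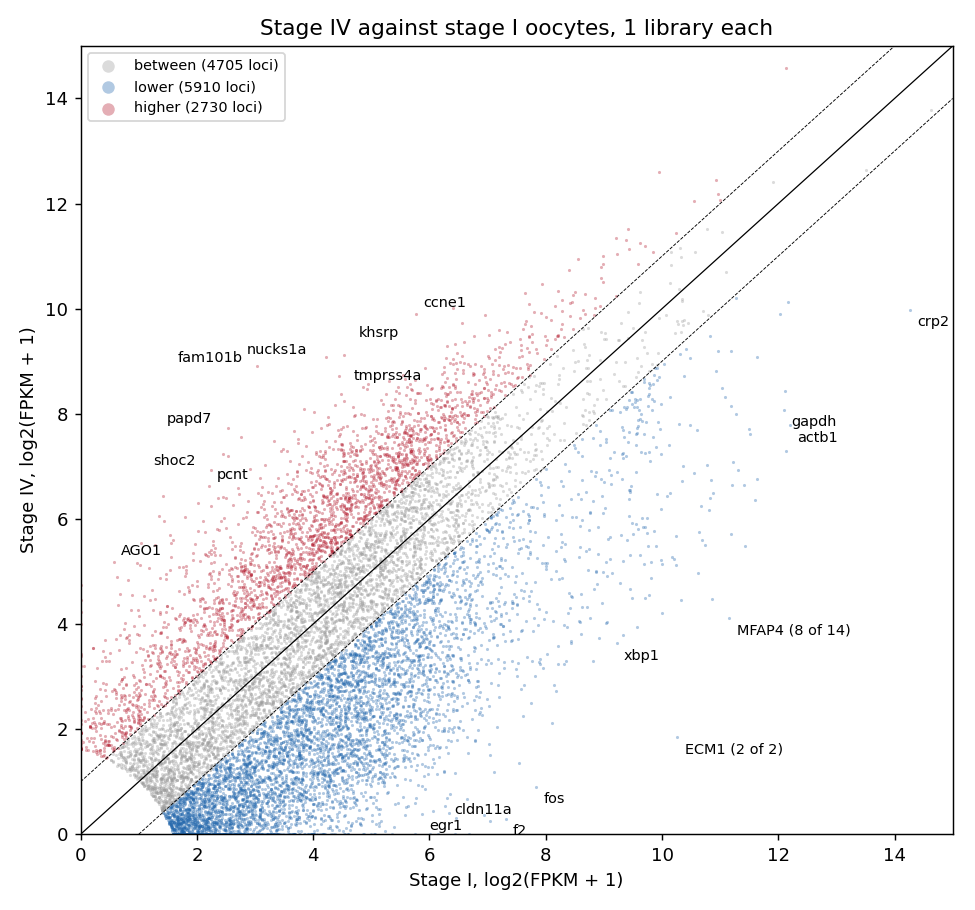
Each point is 1 of the 13345 loci, with its log2(FPKM + 1) in the stage I library on the x axis and in the stage IV library on the y axis. The solid line marks equal values and the dashed lines a difference of 1; 2730 loci lie above the upper line and 5910 below the lower one, and some of the loci named in the text are labelled.

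The shares of the libraries held by these loci follow from the rule that chose them and are given as a description. The higher loci made up 13.7% of the stage I FPKM sum and 56.5% of the stage IV sum. The lower loci went the other way, from 55.6% to 10.4%, while those in between held 30.2% and 32.9%. The median higher locus was at 14.4 and 54.8 FPKM in stages I and IV, and the median lower locus at 15.9 and 1.96. By their medians alone, higher and lower loci were thus at similar levels in stage I. The stage IV library listed 405 of the 13345 loci at 0 (3.03%) and the stage I library 20 (0.150%). The 10 highest loci took a similar share of both libraries, 11.4% in stage I and 11.5% in stage IV. Loci of the mitochondrial chromosome made up 1.84%, 4.89%, 9.14% and 8.78% of the FPKM sum in stages I to IV.

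Markers of the cells around the oocyte, and liver plasma protein genes, moved with the comparison. The follicle cell list (granulosa and theca, 22 loci) summed to 768 and 215 FPKM in stages I and IV, and 6 of its loci were listed at 0 in stage IV and none in stage I. Of its 14 loci in the comparison, 13 were lower. Among all 22 loci, 18 were at 1 FPKM or more in stage I and 5 in stage IV. Most of the 14 thus reached the minimum mean through stage I alone, which favours a lower call. What was left in stage IV was mostly the steroid synthesis genes cyp11a1, at 224 and 170.5 FPKM, and cyp17a1, at 74.7 and 33.8. The aromatase gene cyp19a1a was at 10.3 and 0.166 FPKM, the inhibin gene inha at 34.1 and 0.305, and the keratin gene krt8 at 130.4 and 1.83. Stroma and smooth muscle markers summed to 459 and 313 FPKM, of which TPM1 alone, a tropomyosin gene that many cells express, gave 95.6 and 256. Blood and macrophage markers summed to 194 and 26.4 FPKM, endothelial markers to 28.2 and 2.42, and liver plasma proteins to 221 and 5.11. Most of the liver sum in stage I came from f2 alone, at 158 and 0.230 FPKM. In bulk RNA, fewer cells of a type and less RNA per cell cannot be told apart. Their part in the lower genes below was not tested.

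The oocyte's own markers were present at both ends, but 12 of the 15 in the comparison were also lower, and the list summed to 11589 and 3956 FPKM. The RNA-binding protein gene dazl, which works in germ cell translation, was the 1 higher marker, at 73.1, 68.8, 42.7 and 432 FPKM over stages I to IV. The markers h1m and figla were listed at 0 in all 4 libraries. Because RNA was selected by its poly(A) tail, a message that lost its tail and a message that was lost cannot be told apart.

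To weigh each difference against its own bounds, genes were ordered by the smallest difference that the bounds allow. Behind fam101b, papd7 and nucks1a at its head, the 15 highest included tmprss4a, a membrane-anchored serine protease gene (chromosome 15, 13002899 to 13033028). It was at 20.7, 17.6, 11.05 and 420.3 FPKM over stages I to IV, and its bounds were 17.8 to 23.7 at the first and 402 to 438 at the last of these. It was higher in stage IV alone, since stages II and III lay below stage I. The chromatin-binding protein gene dek (chromosome 16, 43680738 to 43696209) also stood apart in stage IV, at 9.02, 17.2, 14.1 and 178 FPKM. The gene pik3cg, which encodes a catalytic subunit of phosphoinositide 3-kinase (chromosome 4, 3214042 to 3224466), climbed from stage to stage, at 1.44, 2.31, 8.56 and 44.1 FPKM. The gene ccne1 of cyclin E, which drives entry into S phase (chromosome 7, 47629355 to 47639396), was at 53.5, 35.9, 34.9 and 953 FPKM, with a log2 difference of 4.13.

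The 15 lowest in the same order were headed by ECM1 (2 of 2), an extracellular matrix protein gene, at 1230.3, 197, 1104 and 2.59 FPKM over stages I to IV. The matrix-associated MFAP4 (8 of 14) came next, at 2286, 1434, 15587 and 16.3, and was highest in stage III. Behind it SMIM4, a small membrane protein gene, was at 102, 127 and 108 in stages I, II and III and listed at 0 in stage IV. Its stage IV bounds were both 0 as well, so its place in this order is less certain. The immediate early transcription factor gene fos (chromosome 20, 46803308 to 46805437) was at 227, 157, 158 and 0.861 FPKM over stages I to IV, so that stages II and III were close to each other and stage IV stood far below. The related gene junbb was at 65.6, 54.4, 93.01 and 0.352 and egr1, a zinc finger factor of the same response, at 57.8, 37.3, 52.5 and 0.312. The factor xbp1, which drives the unfolded protein response of the endoplasmic reticulum (chromosome 5, 17718234 to 17722743), was at 596, 363, 248 and 11.4. It was lower at each stage than at the one before. Smooth muscle actin acta2, a stroma marker, was at 80.4, 20.7, 81.1 and 0.703 FPKM, and the tight junction gene cldn11a at 78.2, 22.3, 146 and 0.6104. Both were also lower in stage II than in stages I and III, and so were the sums of the follicle and of the stroma markers.

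The gains and losses in FPKM itself fell on fewer and more abundant genes. The largest loss belonged to crp2, a C-reactive protein gene (chromosome 24, 39585485 to 39588803), at 19761, 14249.7, 13188 and 1011 FPKM over stages I to IV. This single locus made up 2.56% of the stage I FPKM sum and 0.148% of the stage IV sum. The glycolytic enzyme gene gapdh was at 4379.9, 1436, 1676 and 268, the beta-tubulin gene tubb4b at 4429, 1729, 1871 and 343 and the metal-binding metallothionein gene mt2 at 2934, 1805, 2187 and 196. For gapdh and tubb4b most of the loss in FPKM had already taken place by stage II. As a ratio, the step between stages III and IV was larger than that between I and II. The translocon subunit gene sec61g was at 3161, 1401, 2148 and 542 FPKM and the ATP synthase subunit gene atp5g3b at 4161, 2073, 2775 and 954. The ribosomal protein gene rps20 (25433 and 14003) and the locus phc2b (11648 and 6363) lost many FPKM but stayed under the 2-fold rule. The symbol phc2b is that of a polycomb gene, but the locus is short (chromosome 1, 774782 to 775204). Whether its FPKM stands for the message of that gene was not tested.

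Among nuclear genes the largest gains were those of claudins, which form tight junctions, of a mitotic kinase and of a chromatin protein. The claudin gene cldng (chromosome 1, 33277725 to 33279850) was at 1994, 1462, 1680.4 and 4646 FPKM over stages I to IV. Its relative cldnd, already at 3847 in stage I, was at 5441 in stage IV, a log2 difference of 0.50 that stays under the rule. The mitotic kinase gene plk1 (chromosome 1, 8229225 to 8237927) was at 669, 853, 761 and 2544, with the stages before IV close to each other. The chromatin protein gene hmgb2a was at 789, 801, 1303 and 2437. The other 6 of the 10 largest gains were mitochondrially encoded, of which mt-atp6 was at 987, 2922, 6308 and 6229, so that its difference lay between stages I and III and not between III and IV. The locus with the highest FPKM in stage IV, mt-atp8, at 4488 and 24621, spans fewer than 300 bases and was left out of this order. All 13 loci kept on the mitochondrial chromosome were higher in stage IV, with a median log2 difference of 2.13.

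Against this background, 48 lists of genes with a shared function were counted. In 37 lists more members were lower than higher, in 10 more were higher, and in 1 the counts were equal. With the median-ratio scaling the balance turned in 5 of the 48 lists and no list median changed sign. With all differences centred on the median, the balance turned in 10 lists, these 5 among them, and 11 medians changed sign. The lists that turned are named where they appear. In 17 lists both shares lay within 10 percentage points of those of all loci. These were the lists of RNA polymerase II, cleavage and polyadenylation, DEAD and DEAH box helicases, deadenylases, mitochondrial carriers, lysine demethylases, nucleoporins, the COP coats, lysosomes, the 3 kinds of ubiquitin enzymes, heat shock proteins, antioxidant enzymes, cAMP signalling, matrix proteases and integrins. Their members are described below as single genes, and their counts set them apart little from all loci. Since the median locus was lower, 23 list medians lay above the median of all loci and 25 below it. With no filter on low values, where the median of all 28405 loci was -0.07, 44 of the 48 list medians lay nearer to 0, and that of the chromatin remodelers changed sign to -0.03.

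**Figure D2:**
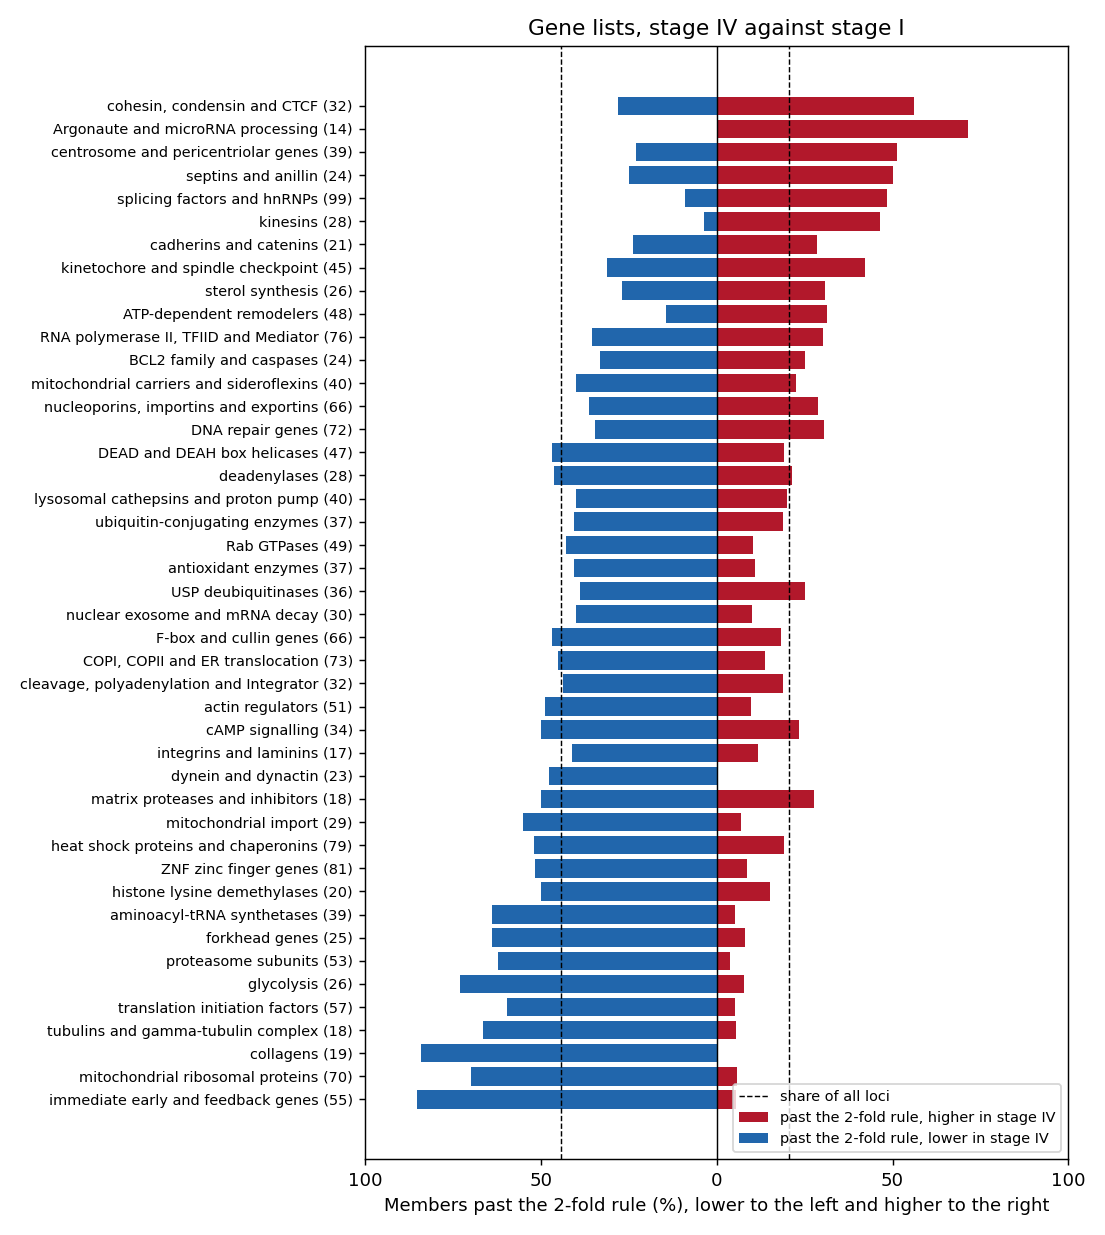
Each bar gives the percentage of a list's members past the 2-fold rule, lower in stage IV to the left and higher to the right, for the 44 lists with at least 14 loci kept (number in brackets), ordered by median difference. Dashed lines mark the shares over all loci, 44.3% lower and 20.5% higher; with the median-ratio scaling the balance of the lists of RNA polymerase II, of nucleoporins, of DNA repair and of BCL2 genes turned to more higher than lower members, and with centring so did those of mitochondrial carriers, lysosomes, ubiquitin-conjugating enzymes, cAMP signalling and integrins.

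Splicing genes were the largest group to stand on the higher side. Splicing factors and hnRNPs, the proteins that coat and cut the nascent transcript, counted 48 higher and 9 lower of 99 members, with a median of 0.97 against -0.69 over all loci. Together they made up 1.20% of the stage I FPKM sum and 3.36% of the stage IV sum. The pre-mRNA binding protein gene hnrnpk (chromosome 8, 52006517 to 52027085) was at 74.8, 76.3, 112 and 473 FPKM over stages I to IV, with bounds of 68.1 to 81.6 and 453 to 493 at the ends. The gene prpf8, the core of the U5 particle, was at 19.7, 29.2, 32.2 and 121 and hnrnpc at 160.4, 221, 282 and 755. All of these had their main step between stages III and IV. The 9 lower members included cdc5l, a partner of the PRP19 complex, at 45.6, 57.4, 42.3 and 7.84, the splicing cofactor rbm39b at 32.6 and 8.496, and sf3b3, a subunit of the branch-site complex SF3b, at 9.98 and 1.71. The SF3b partner sf3b1 was at 23.5 and 80.7, so that subunits of 1 complex lay on both sides.

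Other steps of nuclear RNA production were split. RNA polymerase II, TFIID and Mediator counted 23 higher and 27 lower of 76, a balance that turned to 28 and 24 with the median-ratio scaling and to 34 and 15 with centring. The TFIID subunit gene taf3 was at 11.1, 18.1, 21.4 and 70.5 FPKM over stages I to IV, and the Mediator genes med25 and med16 at 30.6 and 11.9 in stage I against 178 and 64.4 in stage IV. On the other side, polr2k, a small subunit that the nuclear RNA polymerases share, was at 258, 173, 207 and 9.74. The Mediator head and middle genes med6 and med7 were at 62.9 and 101 FPKM in stage I against 4.71 and 6.64 in stage IV. For cleavage, polyadenylation and Integrator genes 6 were higher and 14 lower of 32, close to the shares of all loci. Here cpsf6, which helps to choose the poly(A) site, was at 46.5 and 139.8, while wdr33, which binds the poly(A) signal, was at 39.9 and 1.26. DEAD and DEAH box RNA helicases counted 9 higher and 22 lower of 47. The helicase gene ddx41 (chromosome 9, 8443722 to 8445893) was among the most abundant and lay far lower, at 1595, 1167, 1116 and 53.1, while ddx39aa, of mRNA export, was at 127, 145, 161 and 551.

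The Argonaute and microRNA genes had no lower member: 10 of 14 were higher and 4 under the rule, and the median was 1.83. Argonaute proteins carry the microRNA to its target, and their genes were among the most changed. AGO1 (chromosome 16, 54642280 to 54708191) was at 0.4901, 0.631, 1.35 and 35.4 FPKM over stages I to IV, AGO3 (1 of 2) at 0.9698, 1.45, 1.296 and 34.8, ago3b at 7.61, 7.14, 7.27 and 74.3 and ago4 at 25.3, 35.02, 46.3 and 251. Each was at its highest in stage IV by a wide margin. The nuclear microRNA processor was higher in both of its parts, with the ribonuclease Drosha, here rnasen, at 29.03 and 213 and its partner dgcr8 at 40.4 and 269. The Dicer partner tarbp2 was at 50.1 and 177, and the Argonaute-binding silencing genes TNRC6A and tnrc6b at 12.9 and 6.66 in stage I against 49.3 and 23.3 in stage IV. The cytoplasmic nuclease gene dicer1 itself was at 7.49 (bounds 6.85 to 8.12) and 7.28 (bounds 6.65 to 7.91), so its bounds overlapped. The exporter XPO5 was at 17.5 and 9.84, under the rule.

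Deadenylases remove poly(A) tails, and their genes went both ways, with 6 higher and 13 lower of 28, close to the shares of all loci. The gene pan3, the adaptor of the PAN2-PAN3 enzyme, was at 12.3, 15.7, 24.5 and 174 FPKM over stages I to IV. The catalytic CCR4-NOT subunits CNOT6 (2 of 2) and cnot8 were at 3.97 and 83.9 in stage I against 42.9 and 526 in stage IV. The genes CNOT4 (1 of 2) and cnot3a, of the same complex but without its nuclease, were lower, at 38.2 and 23.9 in stage I against 0.737 and 0.419 in stage IV. Of 30 genes of the exosome and of mRNA decay, 3 were higher and 12 lower. The 5′ exonuclease gene xrn1 was higher at every stage than at the one before, at 7.24, 15.1, 22.3 and 69.3, while the exosome subunit exosc3 was at 68.8, 59.9, 40.6 and 2.22 and upf3b, of nonsense-mediated decay, at 15.9, 24.8, 26.8 and 0.513.

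Genes of translation initiation and of tRNA charging lay mostly on the lower side. Of 57 initiation factor genes, 34 were lower and 3 higher, and their median was -1.69. The lower ones included the initiator tRNA carrier eIF2 and its exchange factor. The eIF2 genes eif2s1a and eif2s2 were at 80.1, 97.6, 79.9 and 3.52 and 116, 130.4, 141 and 5.498 FPKM over stages I to IV, and eif2b2, of the exchange factor, at 94.1, 67.6, 54.1 and 2.94. For eif2s1a and eif2s2 stages I to III lay within a narrow range, and the drop fell between III and IV. The 3 higher members were eif4a1a and eif4a3, RNA helicases of the cap complex and of the exon junction complex, at 353 and 132 in stage I against 786 and 342 in stage IV, and the cap-binding gene eif4e3 at 49.96 and 161. The cap-binding gene eif4e1b was at 251 and 65.2. Aminoacyl-tRNA synthetases, which charge tRNAs, counted 25 lower and 2 higher of 39, with a median of -1.32. The glycyl enzyme gene gars was at 59.997, 81.9, 73.8 and 1.88 and the seryl enzyme gene sars at 79.4, 84.97, 83.2 and 3.06, while hars, for histidine, was at 40.8, 61.9, 80.8 and 89.1.

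Nuclear genes for mitochondrial proteins were lower where they make or import proteins. Of 70 mitochondrial ribosomal protein genes 49 were lower and 4 higher, and the median was -2.22. The list went from 0.558% to 0.235% of the FPKM sum, while the messages of the mitochondrial chromosome took a larger share, as given above. The large-subunit gene mrpl14 was at 154, 116, 145 and 7.96 FPKM over stages I to IV, mrpl24 at 30.8, 38.8, 31.2 and 0.625, and mrpl13, the most raised, at 28.3, 31.99, 54.9 and 87.6. Of 29 import genes 16 were lower and 2 higher, with the channel gene timm23 at 69.6 and 4.47 and the receptor gene tomm22 at 73.7 and 5.84. Mitochondrial carriers and sideroflexins counted 9 higher and 16 lower of 40, which turned to 16 and 9 with centring. Sideroflexins themselves went both ways: the serine carrier gene sfxn1 was at 1.05, 1.08, 2.89 and 45.4, sfxn2 at 31.6, 45.8, 32.5 and 1.43 and sfxn4 at 16.5 and 1.397. The iron carrier gene slc25a37, mitoferrin, was at 2.48, 2.96, 1.98 and 29.1. The median span of the mitochondrial ribosomal protein loci, 6129 bases, was less than that of all loci, 15667 bases, and its part in their difference was not tested.

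Genes that hold and fold chromosomes were mostly higher, with a median of 1.94 over 32 cohesin, condensin and CTCF loci, of which 18 were higher and 9 lower. With no filter on low values this median was 0.35. Cohesin is the ring that ties sister chromatids, and its core genes smc3 (chromosome 22, 32548210 to 32596439) and smc1al were at 20.5, 35.5, 48.2 and 205 and 25.9, 44.5, 55.6 and 193 FPKM over stages I to IV. The ring partner rad21a was higher at both of its loci, and stag1b was at 16.5 and 143. The meiotic forms went the other way. STAG3, known from mammals as a meiosis-specific cohesin subunit, was at 17.1, 8.62, 9.32 and 0.293, and rad21l1, a meiotic relative of rad21, at 15.1, 15.9, 16.4 and 2.65. The cohesin loader was split between its parts: all 4 NIPBL loci in the comparison were lower, with nipblb at 8.74, 13.5, 6.51 and 0.254, while the partner gene mau2 was at 54.3, 58.3, 43.98 and 231. The release factor genes wapala and wapalb were at 0.605, 0.682, 1.76 and 22.7 and 22.6, 42.5, 36.4 and 136.

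Condensins compact the chromosomes for division. The shared subunits smc2 and smc4 were at 27.2, 48.3, 51.4 and 255 and 50.9, 85.7, 44.3 and 352 FPKM over stages I to IV. The subunits of condensin I were higher, with ncapd2 at 83.6 and 492, ncapg at 46.6 and 258 and ncaph at 49.8 and 211. Those of condensin II were under the rule, with ncapd3 at 12.5 and 10.6, ncapg2 at 14.98 and 14.7 and ncaph2 at 18.3 and 13.7. The condensin I genes were also above those of condensin II in stage I. The boundary factor gene ctcf was lower, at 29.7 and 7.11.

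ATP-dependent chromatin remodelers had 15 higher and 7 lower of 48 members and a median of 0.07, above that of all loci. Subunits of the BAF complex led the higher side, with arid1ab at 19.000, 34.9, 28.5 and 115 FPKM over stages I to IV, smarcc1a at 36.7, 46.8, 55.8 and 173 and the ATPase smarca4 at 38.4 and 105. The NuRD ATPase gene chd4a was at 48.4 and 258, whereas its copy chd4b stayed at 24.6 and 26.4. On the lower side ino80c, of the INO80 complex, was at 60.3 and 6.38 and chd8 at 22.5 and 3.33. Histone lysine demethylases counted 3 higher and 10 lower of 20. The H3K9 demethylase gene KDM4C was at 6.95 and 33.7, and the H3K4 demethylase gene kdm5bb at 20.6 and 1.56. DNA repair genes were even, 22 higher and 25 lower of 72, a balance that turned to 24 and 21 with the median-ratio scaling and to 29 and 15 with centring. ZNF zinc finger genes counted 42 lower and 7 higher of 81, with a median of -1.09. Among the few higher members, the spindle-associated znf207a was at 49.8 and 192, and znf367 at 11.3 and 100.2. The copy znf207b was lower, at 20.1 and 8.94.

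Genes of the meiotic and mitotic spindle were divided by part. Kinesins, the motors that move along or sort microtubules, had 13 higher and 1 lower of 28, with a median of 0.93. The spindle-pole separating motor gene kif11 was at 91.2, 120.3, 93.7 and 506 FPKM over stages I to IV and kif15, which can share its task, at 9.03, 19.9, 16.1 and 60.5. The chromosome-arm motors kif22 and KIF4A were at 75.8 and 43.1 in stage I against 388 and 146 in stage IV, and the 1 lower kinesin was KIF21A (1 of 2), at 5.24 and 0.694. Dynein, the motor of the opposite direction, and its dynactin partner had no higher member, with 11 lower of 23. Its light chain gene dynll1 was at 155, 65.7, 115 and 8.64, and the heavy chain gene DYNC1H1 at 25.1 and 2.06.

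Tubulins, the track itself, were lower: 12 of 18 members of the tubulin and gamma-tubulin list were lower and 1 higher, and the list sum went from 7636 to 996 FPKM. Apart from tubb4b, the alpha-tubulin genes tuba4l and tuba8l4 were at 2162, 1109, 1179 and 318 and 699, 489, 699.6 and 90.5 over stages I to IV. Tubulin genes are near-copies of each other, so the split of reads among them is uncertain. The nucleating gamma-tubulin gene tubg1 was at 13.3 and 26.5, under the rule. Its small partners went opposite ways, with mzt2b at 27.5 and 116 and MZT1 at 59.8 and 3.15.

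Centrosome and pericentriolar genes had 20 higher and 9 lower of 39 members, with a median of 1.20. The scaffold gene pcnt (chromosome 6, 11183233 to 11273818) was at 3.64, 7.19, 6.09 and 98.02 FPKM over stages I to IV, nin, of microtubule anchoring, at 13.7, 15.8, 13.7 and 167, and stil, of centriole assembly (chromosome 22, 16106165 to 16118685), at 21.2, 31.3, 18.8 and 331. Other centriole assembly genes followed, with cep152 at 12.4 and 81.99, cep135 at 5.501 and 59.02 and sass6 at 41.7 and 126. The kinase gene plk4, which starts centriole duplication, was lower, at 10.5, 19.5, 12.2 and 0.745. CDK5RAP2, a scaffold of the pericentriolar material, was also lower, at 7.96 and 1.14.

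Kinetochore and spindle checkpoint genes had 19 higher and 14 lower of 45. The kinetochore motor gene cenpe was at 21.2, 37.5, 42.7 and 209.9 FPKM over stages I to IV, the checkpoint gene mad1l1 at 30.5, 51.5, 46.9 and 158 and SGOL1, which guards centromeric cohesion, at 14.1 and 73.9. The chromosomal passenger genes birc5a, INCENP and aurkb were at 44.3, 121 and 399.9 in stage I against 283, 357 and 1011 in stage IV, while cdca8, of the same complex, went from 255 to 33.3. The microtubule-binding NDC80 complex was likewise split: ndc80 was at 53.9 and 131 and spc25 at 28.1 and 98.98, but nuf2 at 80.7 and 9.13. The inner kinetochore genes cenpo and CENPT were lower, at 20.002 and 25.96 in stage I against 0.786 and 1.54 in stage IV, and SKA2, of the SKA complex, was at 178, 164, 70.96 and 7.79.

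**Figure D3:**
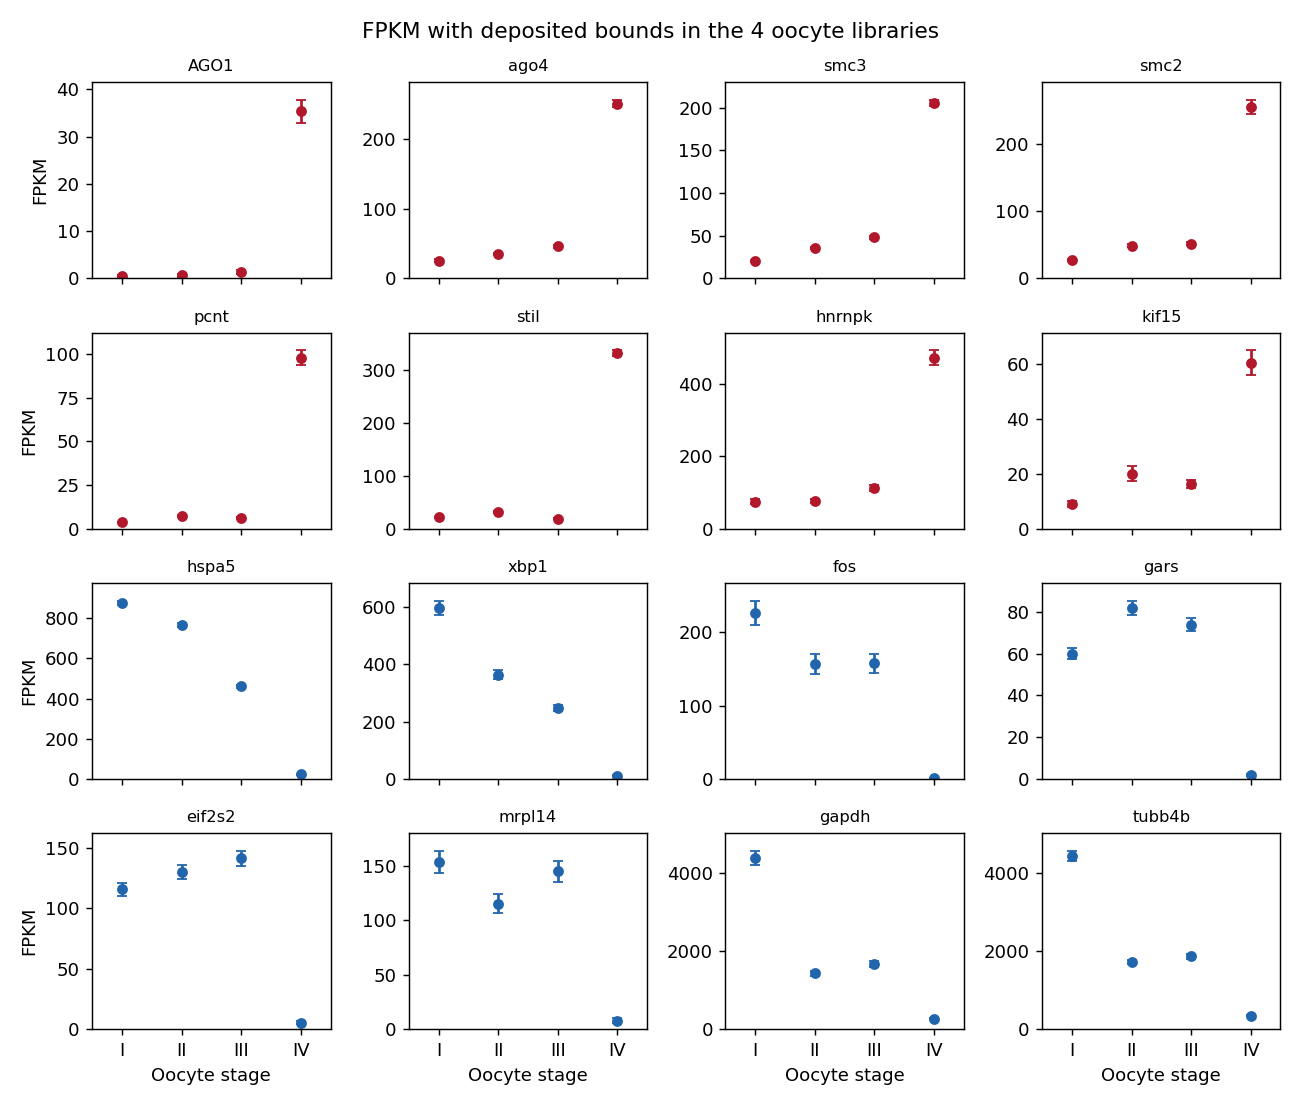
FPKM in each of the 4 oocyte libraries (x axis, stages I to IV) for 16 genes named in the text, with the deposited lower and upper bounds as bars. The first 8 genes (red) were higher in stage IV than in every other stage and the last 8 (blue) were lowest in stage IV.

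Genes that divide the cell after the chromosomes part had 12 higher and 6 lower of 24. The filament-forming septin genes sept7b and sept2 were at 17.4, 15.6, 22.6 and 155 and 33.6, 50.7, 96.7 and 199 FPKM over stages I to IV, and PRC1 (1 of 3), which bundles the midzone microtubules, at 38.1, 50.9, 69.5 and 244. The partners that activate the contractile ring went opposite ways: ect2, the exchange factor, was at 45.1 and 126 and racgap1, which recruits it, at 45.9, 72.03, 25.9 and 3.298. The RhoA copies differed too, with rhoac at 75.6 and 286 and rhoaa at 23.1 and 1.18. Among 51 actin regulators 5 were higher and 25 lower. The filamin-binding fam101b (chromosome 15, 24449580 to 24453227) was at 7.18, 13.6, 8.82 and 481, and wasf2, which activates branched actin, at 43.7 and 196. The branching complex genes arpc4l and arpc5lb were at 70.6 and 42.5 in stage I against 2.12 and 1.46 in stage IV. The myosin light chain gene myl9a, at 34.2 and 0.1202, is a smooth muscle gene, and the stroma markers given above were lower with it.

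Nuclear pore and transport receptor genes were even, 19 higher and 24 lower of 66, and turned to 24 and 20 with the median-ratio scaling and to 28 and 17 with centring. The pore genes nup98 and tprb were at 17.4 and 22.1 FPKM in stage I against 119 and 118 in stage IV. The exporter gene xpo1a was at 37.9 and 187 and the importer gene ipo7 at 99.98 and 9.69. These are single genes of the list, and the exporter gene XPO5, given above, did not lie on the side of xpo1a.

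COPI, COPII and ER translocation genes, of the early secretory pathway, counted 33 lower and 10 higher of 73, near the shares of all loci. The cargo receptor genes lman1 and kdelr2b were at 197, 155, 96.5 and 6.18 and 99.7, 101, 38.1 and 4.61 FPKM over stages I to IV, and the coat gene copg2 at 93.7, 97.4, 80.5 and 4.395. The translocon genes sec61b and sec61a1 were at 964 and 208 in stage I against 88.4 and 20.8 in stage IV. The small GTPase gene arf1, which recruits the coat, was higher, at 46.3, 57.9, 67.96 and 199.5, and tmed5 was at 76.3 and 282. Rab GTPases, which tag membranes for traffic, counted 5 higher and 21 lower of 49, with rab5b, of early endosomes, at 11.2 and 37.3 and rab9a, of late endosomes, at 31.7 and 3.24. Lysosomal cathepsins and proton pump genes counted 8 higher and 16 lower of 40, which turned to 15 and 10 with centring. The cholesterol-binding npc2 was at 508, 435, 655 and 2046, and the pump subunit atp6v0ca at 273, 274, 462 and 27.8.

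Chaperones of the endoplasmic reticulum were among the most reduced genes of the whole heat shock and chaperonin list, which counted 41 lower and 15 higher of 79 with a median of -1.06. The BiP gene hspa5 (chromosome 5, 2513293 to 2521203) was at 876, 766, 460.4 and 22.4 FPKM over stages I to IV, with bounds of 866 to 886 and 20.8 to 23.98 at the ends, and hsp90b1, its HSP90 partner, at 453, 391, 259 and 24.4. The BiP cofactor gene dnajc3 was at 67.96, 57.4, 37.3 and 3.48. These genes, like xbp1, were lower at each stage than at the one before. Of the 8 subunits of the cytosolic chaperonin, 7 were lower and cct8, at 139 and 87.9, stayed under the rule. The constitutive HSP70 gene hspa8 also stayed under it, at 1305 and 869, while hsp90ab1 was at 823 and 195. On the higher side dnajc5ga was at 38.7, 52.9, 38.9 and 392.

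Proteasome genes were mostly lower, but its nuclear activators were higher. Of 53 members 33 were lower and 2 higher, and the median was -1.66. The 2 higher ones were psme4b (PA200) and psme3 (PA28 gamma), activators that cap the core without ubiquitin, at 10.5, 10.3, 11.004 and 64.997 and 114, 129, 148 and 399 FPKM over stages I to IV. The core genes psmb6 and psma1 were at 164 and 193 in stage I against 15.9 and 21.5 in stage IV, and the immune subunit psmb8 was at 9.32 and listed at 0.

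Of 66 F-box and cullin genes, parts of ubiquitin ligases, 12 were higher and 31 lower, near the shares of all loci. The inhibitors of the anaphase-promoting complex went opposite ways. Emi2, here fbxo43 (chromosome 16, 58172415 to 58189261), which in frogs and mice holds the egg in metaphase II, was at 157, 142, 70.9 and 641. Emi1, here fbxo5, which acts earlier in the cycle, was at 250.3, 218, 207 and 16.2. The gene UBE2S, which extends ubiquitin chains for that complex, was at 75.7 and 241, in a list of 37 conjugating enzymes with 7 higher and 15 lower, or 14 and 12 with centring. USP deubiquitinases counted 9 higher and 14 lower of 36, with usp7 at 17.5 and 109 and the proteasome-bound usp14 at 44.2 and 5.44.

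Glycolysis genes were mostly lower, and sterol synthesis genes were divided. Of 26 glycolysis genes, 19 were lower and 2 higher; the median was -1.66, and the list went from 1.06% to 0.192% of the FPKM sum. Besides gapdh, the enolase gene eno3 was at 1007, 661, 748 and 36.4 FPKM over stages I to IV, hexokinase hk2 at 36.3, 43.2, 53.6 and 1.002 and the lactate dehydrogenase gene ldhba at 1010.2 and 290.4. Both higher members encode the bifunctional enzyme that sets the regulator fructose 2,6-bisphosphate, with pfkfb4 at 11.3, 16.8, 17.5 and 52.1 and pfkfb2a at 3.21 and 13.02. Sterol synthesis counted 8 higher and 7 lower of 26. The isoprenoid genes idi1 and fdps were at 7.35 and 57.4 in stage I against 48.1 and 177 in stage IV, and the regulator srebf2 at 10.2 and 30.7. Among the 7 lower members, mvda, of an earlier step, was at 33.9 and 1.097, and nsdhl, of a later step, at 83.8 and 6.47. Of 37 antioxidant genes 4 were higher and 15 lower, with gpx1b, a glutathione peroxidase gene, at 5.93 and 25.04 and the heme oxygenase gene hmox1a at 19.03 and 0.201.

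Of 87 loci of immediate early genes and the feedback genes that follow them, 55 reached the minimum mean. Among these 55, 47 were lower (85.5%) and 3 higher, and the median was -2.41. The median member of the 55 was at 20.1 and 0.600 FPKM in stages I and IV. Many thus reached the minimum through stage I alone, which favours a lower call. With no filter on low values 49 of the 87 were lower and 3 higher, and the median was -1.20. The growth arrest gene gadd45g was at 40.9, 9.801, 6.56 and 0.0992 FPKM over stages I to IV, cebpb, a factor of inflammation, at 53.05, 32.4, 39.4 and 0.508, and jun at 36.8, 18.4, 38.2 and 0.03995. The phosphatase gene dusp1, which switches off MAP kinases, was the clearest exception, at 145, 129.95, 218 and 771. The other higher members were zfp36l2, an mRNA-destabilising protein gene, at 87.8 and 247, and dusp8a at 2.64 and 7.49. The most abundant member after dusp1 in stage IV, btg2, was at 428 and 552, under the rule. The markers of follicle, blood and stromal cells given above were lower with this list, and their part in it was not tested.

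Cyclic AMP keeps fish oocytes arrested, and its pathway counted 8 higher and 17 lower of 34, which turned to 10 and 9 with centring. Of protein kinase A, the catalytic gene prkacbb was at 10.1, 11.7, 11.98 and 65.2 FPKM over stages I to IV. The anchoring genes akap1a and akap1b were at 86.6 and 125 in stage I against 7.39 and 14.2 in stage IV, and the repressor gene crema at 19.6 and 0.902. BCL2 genes and caspases, which decide on cell death, counted 6 higher and 8 lower of 24, turning to 9 and 8 with the median-ratio scaling as with centring. The death effector baxa was higher, at 24.7 and 120.4, and its copy baxb lower, at 9.48 and 1.17. The inhibitor xiap was at 35.7 and 101, the inhibitor birc2 at 61.6 and 2.04, and apaf1, which builds the apoptosome, at 25.5 and 1.28.

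At the cell surface, the genes of E-cadherin and of some catenins were higher. The E-cadherin gene cdh1 (chromosome 7, 56206925 to 56228078) was at 36.9, 28.2, 138 and 330.3 FPKM over stages I to IV, and its partners ctnnb2, a beta-catenin, and jupa, plakoglobin, at 145 and 26.8 in stage I against 619.5 and 79.98 in stage IV. The p120 catenin gene ctnnd1 was higher at both of its loci, the more abundant at 1.58 and 17.7. As a list, cadherins and catenins counted 6 higher and 5 lower of 21. The lower ones included the endothelial cdh5, at 2.801 and 0.0704. Of 9 claudins 3 were higher and 3 lower, with cldn12 at 16.4, 18.97, 26.4 and 133.6 and cldn7b at 136, 73.5, 39.1 and 435 beside cldng.

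Connexins build the gap junctions between the oocyte and its follicle cells. Of 9 in the comparison 2 were higher and 5 lower. The gene cx43 was at 33.2, 24.5, 17.3 and 0.716 FPKM over stages I to IV and cx34.5 at 12.6 and 0.623. The gene cx43.4 went the other way, at 161, 199, 187 and 442, and so did cx44.2, at 34.3 and 114. The reduced and the raised connexins were thus different genes.

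Collagens in the comparison were mostly lower, while matrix proteases and integrins went both ways. Of 58 collagen loci, 19 reached the minimum mean, and of these 16 were lower and 0 higher. The 19 had median values of 3.59 (stage I) and 0.189 FPKM (stage IV). Many thus passed the minimum through stage I alone, which favours a lower call. With no filter on low values 17 of the 58 were lower and 0 higher, and the median was -0.30. With a pseudocount of 5 FPKM 6 of the 19 were lower. The fibrillar genes col1a1b and col1a2 were at 9.46, 5.53, 21.2 and 0.133 and 7.72, 5.09, 20.6 and 0.06595 FPKM over stages I to IV, highest in stage III, as was the stroma marker sum at 470 FPKM. Of 18 matrix proteases and inhibitors 5 were higher and 9 lower. The collagenase gene mmp13a was at 57.6, 51.2, 771 and 0.8901, so that stage III stood apart from the rest. Among the higher members adam10a was at 21.3 and 71.9. Integrins and laminins counted 2 higher and 7 lower of 17, or 4 and 3 with centring, with the fibronectin receptor genes itga5 and itgb1b at 2.59 and 25.3 in stage I against 15.8 and 73.6 in stage IV. The leukocyte integrin itgb2 was at 5.53 and 0.174.

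Patterning genes were few and mostly low. Of 48 loci of Wnt ligands, inhibitors and Frizzled receptors 10 reached the minimum mean, of which 8 were lower and 1 higher. The 10 had median values of 7.36 (stage I) and 1.36 FPKM (stage IV). The maternal ligand gene wnt8a was at 44.6, 29.997, 10.5 and 18.5 FPKM over stages I to IV, the receptor gene fzd7b at 24.8 and 9.19, and fzd5 at 16.6 and 1.78. Only 5 hox loci reached the minimum, of which 1 was lower and 0 were higher, a balance that turned to 1 and 2 with the median-ratio scaling and to 0 and 1 with centring. Of 63 forkhead loci 25 reached the minimum mean, of which 16 were lower and 2 higher. Their median values were 5.15 (stage I) and 1.63 FPKM (stage IV). Reaching the minimum mainly through stage I favours a lower call. With no filter on low values the forkhead and Wnt medians were -0.05 and -0.15. With a pseudocount of 5 FPKM 7 of the 25 forkhead and 7 of the 10 Wnt loci were lower. The cell cycle factor foxm1 was at 19.02 and 2.301, the granulosa factor FOXL2, also a follicle marker, at 14.4 and 1.63, and foxp1a at 51.8 and 109.

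The zebrafish genome keeps many genes as pairs of copies, whose symbols end in a and b. Pairs were taken by this ending alone, which also joins symbols of separate genes, such as ptpra and ptprb below. How many of the pairs are not copies was not counted. The members of some pairs parted between the stages. Of 901 such pairs of symbols with both members in the comparison, 112 (12.4%) had 1 member higher and the other lower, 78 had both higher, 176 both lower and 137 both in between. Pairs with both members on the same side were thus more common than opposite pairs. No share for pairs of unrelated symbols was set beside the 12.4%. The members were higher in 23.4% and lower in 39.3% of cases, near the shares of all loci. In 323 pairs the members' log2 differences lay more than 2 apart, a 4-fold ratio, and 107 pairs kept their opposite directions with bounds that did not overlap. Only 2 of the 112 pairs had both members on the same chromosome. With a pseudocount of 5 FPKM 49 pairs were opposite, and with the median-ratio scaling 128.

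The pair with the clearest exchange was hdlbp, which encodes vigilin, a protein of many RNA-binding domains. The copy hdlbpa (chromosome 6, 26583067 to 26603979) was at 192, 207, 159.99 and 13.9 FPKM over stages I to IV and hdlbpb (chromosome 12, 23759727 to 23800680) at 4.22, 8.22, 7.15 and 54.2, so that the sum was lower but the leading copy changed. The tropomyosin copies tpm4a and tpm4b were at 42.6, 16.7, 59.3 and 0.907 and 7.79, 10.1, 2.47 and 53.6, and again the more abundant copy was the other one in stage IV. The calcineurin regulator rcan1a was at 92.2, 28.4, 45.4 and 20.9 and rcan1b at 3.28, 6.25, 7.46 and 21.2, which left them level in stage IV. The nuclear RNA-binding gene acin1a was at 70.1 and 268 and acin1b at 54.9 and 5.77.

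Kinase and receptor pairs were among the opposite ones. The MAP kinase-interacting kinase mknk2a, which phosphorylates the cap-binding protein, was at 82.4 and 307 FPKM in stages I and IV and mknk2b at 43.3 and 7.07. The regulatory protein kinase A genes prkar1aa and prkar1ab were at 28.8 and 7.24 in stage I against 111 and 0.771 in stage IV. The lysophosphatidic acid receptor genes lpar2a and lpar2b, which started with overlapping bounds at 71.2 and 64.6, ended at 2.16 and 238. The pair fam222ba and fam222bb was at 5.91 and 25.8 in stage I against 63.9 and 4.79 in stage IV. The symbols ptpra and ptprb, and likewise vps37a and vps37b, match the ending rule but name separate genes in mammals as well. The phosphatase gene ptpra was at 5.5005 and 94.7 and ptprb at 23.7 and 2.65, and the sorting genes vps37a and vps37b were at 20.1 and 32.1 in stage I against 1.799 and 137 in stage IV.

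**Figure D4:**
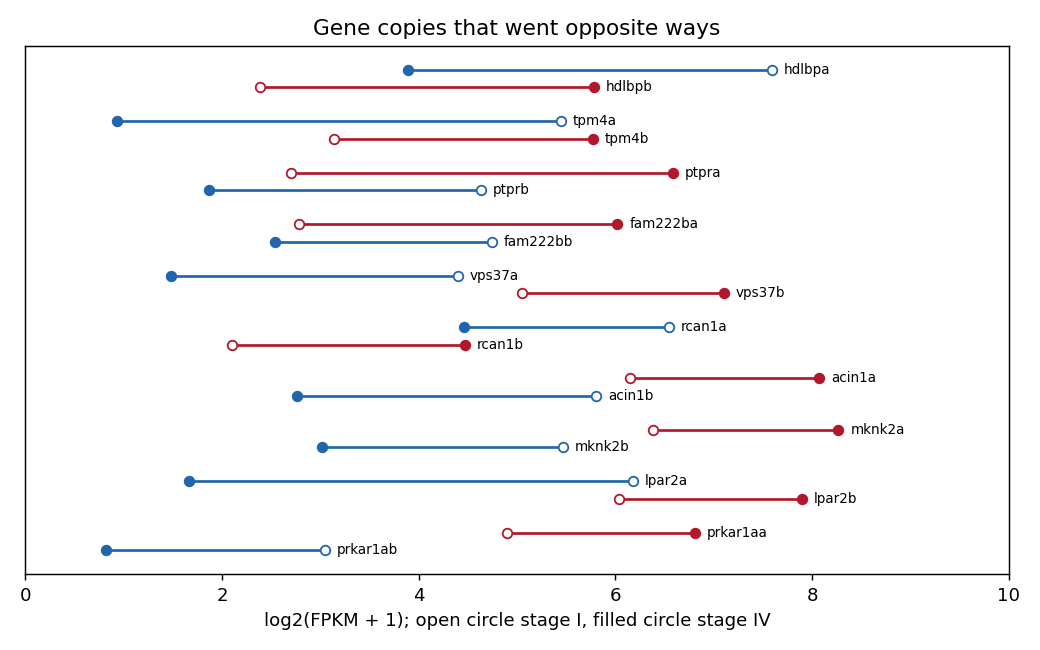
The 10 pairs of symbols ending in a and b whose members parted most clearly between the stages. Each line runs from log2(FPKM + 1) in stage I (open circle) to stage IV (filled circle), red for the higher and blue for the lower member; the order of the members is reversed in stage IV for hdlbp, tpm4, ptpr, fam222b and lpar2, and rcan1 ends level.

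The direction of the difference also went with the size and the level of a locus. When the 13345 loci were cut into 4 groups of equal size by the span of the locus on the genome, introns included, the median log2 difference was -1.21, -0.75, -0.50 and -0.30 from the shortest to the longest. The share lower in stage IV was 54.1% in the group of the shortest loci and 36.4% in that of the longest, and the share higher 13.6% and 25.1%. Some lists followed this order. The mitochondrial ribosomal protein and immediate early genes (median spans 6129 and 4472 bases) were short and lower. The kinesins and the cohesin list (39471 and 26967 bases) were longer and higher. Other long lists lay on both sides. Septins and anillin (32276 bases) and cadherins (32812 bases) had medians of 0.99 and 0.55, but integrins (41080 bases) and lysine demethylases (34629 bases) had -0.94 and -1.09. The collagens kept (43221 bases) and dynein genes (19517 bases) were long and lower. Splicing genes (10258 bases) were short and higher. Span and function were not separated here.

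In 4 equal groups by mean FPKM the medians were -1.09, -1.16, -0.70 and 0.49 from the lowest to the highest, and the share higher went from 8.30% to 39.3%. The group of the highest loci, from 37.95 FPKM up, was the only one with more higher than lower loci, at 39.3% against 27.7%. The mean and the difference come from the same FPKM values, and the scale understates the change of genes with low values. The groups by mean are therefore a description only. Within each of these 4 groups the shorter loci, up to the group's median span, had the lower median. In the group of highest mean FPKM these medians were -0.21 for the shorter and 1.03 for the longer loci, and in the lowest group -1.25 and -0.93. Among the 25 nuclear chromosomes the medians ran from -0.97 on chromosome 22 to -0.51 on chromosome 17, a narrow range beside the spread over loci.

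**Figure D5:**
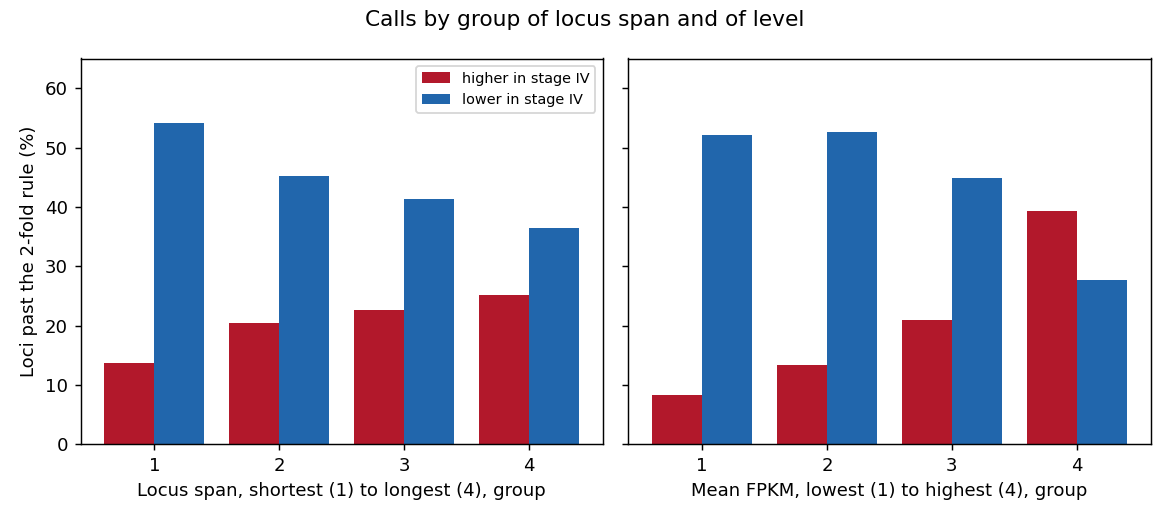
Percentage of loci past the 2-fold rule (y axis) that were higher (red) or lower (blue) in stage IV, by group of equal size in locus span (left) and in mean FPKM (right). From the shortest to the longest group the lower share goes from 54.1% to 36.4%; in the group of highest mean FPKM the higher share of 39.3% exceeds the lower share of 27.7%.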

How the data were processed

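Oocytes of stages I and IV were compared through 1 poly(A)-selected, dUTP-stranded RNA library each. Per the file headers, the authors deposited for every locus its FPKM, 2 bounds and a status flag. The program behind these values, its strand setting and the meaning of the bounds were not given in the sources used here. Tools listed in the submitters' processing notes, with no roles, are Bismark, Bowtie2 2.2.2, STAR 2.5.3a and Trim Galore, and the build is danRer7. Depth is unknown, so no counting interval could be given. Per file, 28405 loci (27564 symbols, 57.6% of them in a current gene name table) were joined on symbol and locus, and starts were shifted to count from 1. The status was failed for 1 locus in each library.

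Loci whose mean reached 1 FPKM were kept, and differences were taken as log2(FPKM + 1) of stage IV minus stage I (Python 3.11.15, pandas 2.3.3, numpy 2.4.6). Members of the 48 gene lists, 6 marker lists and pairs were found by symbol. The rule for named genes admits loci with an assigned symbol, a passed status and a span of at least 300 bases. It takes the 15 on each side with the largest difference that the bounds allow, the 10 largest gains and losses in FPKM, up to 3 members per list and side, and the 10 clearest pairs. Further list members were named for their role after their values were seen. The lists and rules were chosen with earlier results of these data known, and 95 symbols that matched a list only by name were removed after values were seen. Calling was checked on simulated data that held only loci well above the minimum FPKM, with 4-fold changes and counting noise alone. Loci of low FPKM and variation between libraries were not covered by it. Alternatives were pseudocounts of 0.1 and 5, other filters and fold rules, non-overlapping bounds, other scalings, 1 locus per symbol and centring.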

Additional observations from a re-analysis of the deposited data

How the results depend on the processing

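For 294 genes named by the rules or as list examples, no log2 difference changed sign with the median-ratio scaling or scaling without the mitochondrial chromosome. Most of these genes were chosen for large differences, so a change of sign was unlikely from the outset. Not every gene named for its role, such as dicer1, was among them, and a small difference can change sign with scaling. A pseudocount cannot change the sign of a difference. The balance of all loci turned with centring on the median, added after the data were seen, at 4272 higher and 3991 lower. Of the counts of higher and lower loci, the 4-fold rule gave 956 and 3146, a pseudocount of 5 left 3873 lower, and a mean of at least 10 FPKM left 2822 lower. The mean of at least 10 FPKM also moved the share of higher loci among those called to 42.9%. With a pseudocount of 5 FPKM 49 pairs of symbols were opposite. Apart from these counts, those of higher loci ran from 2121 (mean of at least 10 FPKM) to 3435 (median-ratio scaling), and those of lower loci from 3991 (centring) to 6652 (no filter on low values), each within 1.5 times of the value reported. Of 96 list counts, 49 moved by more than 1.5 times under centring, 35 at a mean of at least 10 FPKM, 22 with a pseudocount of 5, 12 under the median-ratio scaling, 5 with no filter, 3 with a pseudocount of 0.1 and 2 without the mitochondrial chromosome. Counting every symbol that matches a list by name, also added after the data were seen, moved 3. At a mean of at least 10 FPKM the balance turned in 4 lists (RNA polymerase II, DNA repair, connexins and matrix proteases) and 5 medians changed sign. Among these were DNA repair from -0.43 to 0.78 and connexins from -1.51 to 1.45. This filter left 43 of the 72 DNA repair loci, 3 of the 9 connexins and 5 of the 18 matrix proteases, so these medians are of fewer members. With a pseudocount of 5 the balance of DNA repair and of sterol synthesis genes turned, and without the mitochondrial chromosome the claudin median went from 0.30 to -0.10. Of the log2 differences of the same 294 genes, 200 left the range that their bounds allow with a pseudocount of 5 and 150 under the median-ratio scaling. No paired analysis was possible because each stage had 1 library. Depth is unknown, and the bounds of the libraries overlapped for 2449 of all 13345 loci (18.4%). How often they overlapped for loci near the minimum of 1 FPKM was not counted apart.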
